A study of Homo sapiens with 6 samples.

Results

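Readthrough genes are annotated genes whose transcripts run from an upstream gene A into its downstream neighbour B on the same strand, and which carry the joined symbol A-B. Members were found by symbol alone, as every gene of GENCODE 44 (GRCh38) called A-B for which A and B are separate protein-coding genes on the same chromosome and strand. This rule gave 117 readthrough genes and 230 partner genes. Of the 117, 112 are annotated as protein coding and 5 as lncRNA, and ARMCX5-GPRASP2 has 2 entries. Of 35810 genes with a transcript in the deposited files, 108 were members and 226 were partners. These 108 had 342 transcripts in all, and 33 of them had 1. The remaining 9 of the 117 had no level of their own here. Their partner genes, the sums over those partners and the distances between them were still used. Of the 108, 19 had no read in any library, 89 had a read in some library, and 63 had at least 10 counts in at least 3 libraries and were tested. A further 26 had reads but too few for the test.

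The libraries are polyA RNA-seq of DLD-1 colorectal adenocarcinoma cells of the genotype SPT5-AID, in which the elongation factor SPT5 carries an auxin-inducible degron. All 6 libraries share this genotype, and their labels name no auxin. The groups, with 3 replicates each, differ in the lentiviral short hairpin RNA, against ARMC5 (shARMC5) or nontargeting (shNT), in cells selected with puromycin. The study used more than 1 hairpin against ARMC5, and which of them gave these libraries is not given in the sources used here. The study describes its replicates as biological, but the labels do not say whether they came from separate cultures. If they did not, the P values measure technical spread.

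Transcription by RNA polymerase II normally ends downstream of the polyadenylation signal, where the nascent RNA is cut by the cleavage and polyadenylation machinery and the polymerase is released. When cleavage does not occur, the polymerase can enter the next gene, and splicing can then join an exon of the upstream gene to an exon of the downstream gene, often skipping the last exon of A and the promoter-proximal exon of B. Some of these joined RNAs encode fusion proteins, and others hold early stop codons and are substrates of nonsense-mediated decay. ARMC5 is a substrate adaptor of the CUL3 ubiquitin ligase, and the study places it in the degradation of RNA polymerase II. The comparison of shARMC5 with shNT cells asks here whether the joined transcripts, or the genes on either side of them, differed in level after ARMC5 knockdown.

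The libraries held 26201112 to 40866478 estimated reads. The ARMC5 knockdown was present in these libraries, with 10.8, 12.0 and 12.9 CPM (read counts scaled to library size with TMM factors) in shARMC5 against 23.0, 25.9 and 26.7 CPM in shNT cells. The means were 11.9 ± 1.09 and 25.2 ± 1.95 CPM (SD, n = 3), a log2 fold change of -1.09 with a standard error of 0.08 (adjusted P = 5.32e-07 from edgeR's quasi-likelihood test). The exact two-sided permutation test gave P = 0.1, the smallest that 3 against 3 libraries allow. In such bulk RNA, fewer cells with a transcript and fewer copies per cell cannot be told apart. Of 9 colorectal epithelial markers in the files, 7 had a mean over 10 TPM (a level per transcript length), VIL1 had 6.07 TPM and CDX1 was at 0. Among these 9, KRT8, KRT18 and KRT19 rose and CDH17 and VIL1 fell, and a part of this in the readthrough genes was not tested. The 4 markers of leukocytes, endothelium and fibroblasts reached at most 0.727 TPM in any library.

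The junctions that join the partners show what is measured. The transcript with the highest level was taken for each of the 89 members with a read. In 50 of them an annotated donor of A was spliced to an annotated acceptor of B. In 34 the acceptor was that of B but the donor was another one, 13 times inside A and 21 times between the genes. In 3 no acceptor of B was used, and in 2, ARMCX5-GPRASP2 and IQCJ-SCHIP1, no donor of A. The joined exon of B was exon 2 in 61 members, and in 21 the last donor of A was joined to exon 2 of B. The introns spanned by the 84 junctions measured 136 to 132570 bases. The distance between A and B was at most 10000 bases, without overlap, in 72 of the 117 members, was larger in 33 and was negative in 12, where the annotated genes overlap, with a median of 3938 bases.

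Junctions of members with high levels, of SYS1-DBNDD2, which was called higher, and of TNFSF12-TNFSF13, which was listed at 0 in 1 group, are shown 5′ to 3′, as the 15 bases of the donor exon in lower case and the 15 bases of the acceptor exon in capitals. They come from the GRCh38 transcripts of GENCODE 44, and a read that crosses the change of case within these 30 bases joins both genes. In FMC1-LUC7L2 the donor lies inside A but is not a donor annotated for A. Positions are the last base of the donor exon and the initial base of the acceptor exon, written from the lower to the higher coordinate.
HNRNPUL2-BSCL2, chr11:62707324-62715500, minus strand: caatacaatcgggatGGACCCTCCATTTTC
NME1-NME2, chr17:51161272-51166827, plus strand: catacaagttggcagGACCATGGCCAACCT
FMC1-LUC7L2, chr7:139345621-139376062, plus strand: aatttcatggcaaggGAGATACAACTCGTC
RPL17-C18orf32, chr18:49483771-49489359, minus strand: gcccagaagaaaaagTTGAGGAGCTCAAGC
HSPE1-MOB4, chr2:197501238-197523624, plus strand: ggttctaaaggaaagGATTTCTATAATTGG
CFAP298-TCP10L, chr21:32582415-32602272, minus strand: caagaggagctcaagCCATTACAGCAGCAG
RPS10-NUDT3, chr6:34341972-34418369, minus strand: accgaattccagtttGTGCTACTCGTGAGC
ARPIN-AP3S2, chr15:89889140-89903216, minus strand: gaggacgaggagtggCCAGAAGAAATTCAA
SYS1-DBNDD2, chr20:45365686-45408460, plus strand: caacgccctcacctgGAGCTGACATGGACC
TNFSF12-TNFSF13, chr17:7556902-7559624, plus strand: tacctgtactgtcagAGTTCCGATGCCCTG

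In most readthrough genes little of the sequence is their own. A median of 145 of their 31-base words (7.60%) occur in no transcript of any other gene among those matched to GENCODE 44. Quantified transcripts without a match were not searched. In some the share was far larger, such as 44.2% in CFAP298-TCP10L and 54.4% in IQCJ-SCHIP1. At the other end 23 members, of which 11 were tested, have at most 30 such words, about what 1 junction gives. HNRNPUL2-BSCL2 has 30 and NME1-NME2 has 24. Salmon divided the other reads of A-B among the transcripts that share their sequence by its model. The level of A-B therefore depends in part on this division. The part that rests on reads of its own words was not measured.

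Readthrough transcripts made up a small part of these libraries. Their reads were 0.0719%, 0.0716% and 0.0706% of the matched reads in shARMC5 and 0.0737%, 0.0721% and 0.0732% in shNT libraries. The groups did not overlap, with all shARMC5 libraries slightly below all shNT libraries (P = 0.1, exact two-sided permutation test, the smallest it can give). Their TPM summed to 502, 524 and 492 in shARMC5 and to 531, 510 and 514 in shNT libraries, with means of 505.9 ± 15.96 and 518.2 ± 11.3 TPM (SD, n = 3, P = 0.4, exact two-sided permutation test). The groups overlapped in TPM. Most of this sum lay in transcripts annotated as protein coding (71.6%) and as targets of nonsense-mediated decay (23.5%), with 2.75% in retained introns and 2.19% in transcripts without a defined coding sequence. The 10 highest members held 63.2% of the sum, 15 members had a mean of at least 10 TPM, and 47 had at least 1 TPM.

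HNRNPUL2-BSCL2, which joins an RNA-binding hnRNP protein to seipin, a protein of lipid droplet formation, had the highest level. It had 61.5, 61.7 and 59.4 TPM in shARMC5 and 66.8, 61.8 and 57.8 TPM in shNT cells. The groups overlapped, and the log2 fold change was -0.01 with a standard error of 0.03 (adjusted P = 0.948, edgeR). Its mean of 61.5 TPM stood above both partners, HNRNPUL2 at 50.4 and BSCL2 at 25.2 TPM, and its transcript is annotated as a target of nonsense-mediated decay.

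ABCF2-H2BK1, which joins an ABC-F family ATPase to a histone H2B variant, had 55.8, 54.0 and 48.7 TPM in shARMC5 and 51.1, 53.2 and 53.3 TPM in shNT cells. Its mean of 52.7 TPM was above that of ABCF2 (35.3 TPM), while H2BK1 itself had 0.07 TPM. The log2 fold change was 0.03 with a standard error of 0.05 (adjusted P = 0.789). FMC1-LUC7L2, between an assembly factor of mitochondrial ATP synthase and a splicing factor of the U1 snRNP, had 39.4, 45.2 and 42.3 TPM in shARMC5 and 43.8, 44.7 and 39.0 TPM in shNT cells. It lay above FMC1 (16.9 TPM) and below LUC7L2 (67.3 TPM), with a log2 fold change of 0.02 (standard error 0.06).

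The nucleoside diphosphate kinase pair NME1-NME2 had 48.9, 51.3 and 43.4 TPM in shARMC5 and 42.3, 45.9 and 45.7 TPM in shNT cells, a log2 fold change of 0.12 with a standard error of 0.07 (adjusted P = 0.370). Both partners were far higher, NME1 at 357 and NME2 at 806 TPM, so that the joined transcript was 3.82% of the TPM of the locus. In 3 further members of the 10 highest A is a very abundant RNA. RPL17-C18orf32, from a ribosomal protein gene of 2574 TPM, had 40.0, 44.8 and 36.7 TPM in shARMC5 and 32.6, 37.7 and 37.7 TPM in shNT cells (log2 fold change 0.24, standard error 0.10, adjusted P = 0.259). HSPE1-MOB4, from the mitochondrial chaperonin gene HSPE1 of 1201 TPM, had 22.3, 24.5 and 20.8 TPM in shARMC5 and 19.2, 20.3 and 18.7 TPM in shNT cells. Its groups did not overlap, and its log2 fold change of 0.23 (standard error 0.09) had an adjusted P of 0.182 by edgeR and was not called. RPS10-NUDT3, from a ribosomal protein gene of 2054 TPM into a Nudix hydrolase gene, had 9.86, 15.2 and 14.1 TPM in shARMC5 and 14.2, 16.7 and 19.8 TPM in shNT cells (log2 fold change -0.11, standard error 0.07, adjusted P = 0.392).

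The other members of the 10 highest were not called either. CFAP298-TCP10L, from a cilia gene, had 14.6, 14.0 and 15.8 TPM in shARMC5 and 23.0, 15.8 and 16.2 TPM in shNT cells, where shNT replicate 1 stood above the rest (log2 fold change -0.28, standard error 0.13, adjusted P = 0.253). ANKHD1-EIF4EBP3, whose downstream gene encodes an inhibitor of the cap-binding protein eIF4E, had 15.1, 14.4 and 13.9 TPM in shARMC5 and 17.7, 15.8 and 15.4 TPM in shNT cells (log2 fold change -0.09, standard error 0.08). ARPIN-AP3S2, from an inhibitor of the Arp2/3 complex into a subunit of the AP-3 adaptor, had 13.4, 15.9 and 12.9 TPM in shARMC5 and 16.2, 15.8 and 13.5 TPM in shNT cells (log2 fold change -0.09, standard error 0.08). The groups overlapped in CFAP298-TCP10L and ARPIN-AP3S2, and in ANKHD1-EIF4EBP3 all shNT libraries stood slightly above all shARMC5 libraries.

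**Figure D1:**
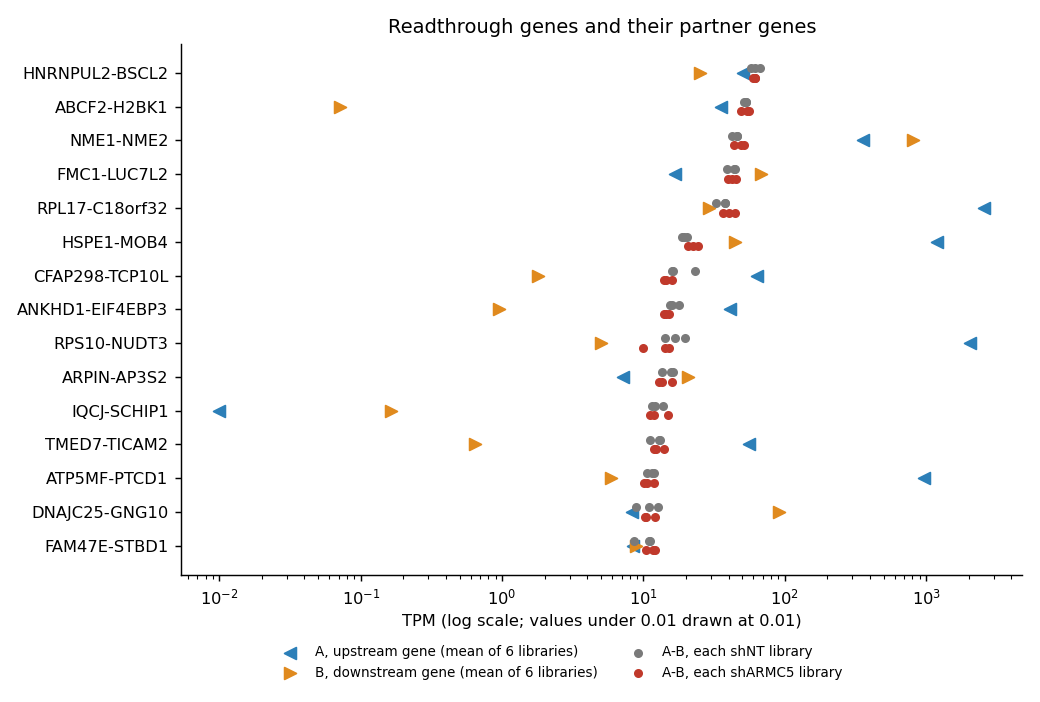
TPM (log axis) of the 15 tested readthrough genes with the highest mean, as a point for each shNT (grey) and shARMC5 (red) library, with the means over 6 libraries of the upstream gene A (blue) and the downstream gene B (orange). The points of both groups lie close together, and A-B lies above both partners in HNRNPUL2-BSCL2, ABCF2-H2BK1, IQCJ-SCHIP1 and FAM47E-STBD1.

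Of the 89 members with a read, A-B had a lower mean TPM than both partners in 57. It was higher than A in 11, than B in 25 and than both in 4. Besides HNRNPUL2-BSCL2 and ABCF2-H2BK1, these were FAM47E-STBD1 (10.8 TPM against 8.44 and 8.79) and IQCJ-SCHIP1 (12.6 TPM against 0 and 0.16). The last, which encodes a protein of the axon initial segment, was 98.7% of its locus, and its transcript with the highest level uses no donor of IQCJ. In 10 members with at least 1 TPM the downstream gene had under 1 TPM. The share of A-B in the TPM of A-B, A and B had a median of 3.70% over the 63 members and ranged from 0.136% to 98.7%.

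ARMC5 knockdown was followed by few calls among these genes. By edgeR with a threshold of 0.1 on the adjusted P value, the study's threshold, 2 of the 63 were higher and 1 was lower in shARMC5 cells, 4.76% in all. Of all 13737 genes tested, 7.75% were called, 4.44% higher and 3.3% lower. The difference between these shares was not tested, and depth differed: the median was 106.8 reads per library over the members tested and 844.7 over all genes tested. Of the members called, SYS1-DBNDD2 passed the filter only through shARMC5 cells. At an unadjusted P under 0.05 there were 6 members (9.52%), against 18.1% of all tested genes. The sign was positive in 30 and negative in 33 members, and the median log2 fold change was -0.01, against 0.00 over all tested genes. CPM did not overlap between the groups in 7 members (11.1%), 4 of them higher and 3 lower, against 23.4% of all tested genes.

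SYS1-DBNDD2 joins a Golgi membrane protein gene to a gene with a dysbindin domain on chromosome 20. It had 10, 36 and 16 reads in shARMC5 and 4, 3 and 0 reads in shNT cells. All 3 shARMC5 libraries stood above all 3 shNT libraries, and shARMC5 replicate 2 was the highest. The difference, 3.02 as a log2 fold change, had a standard error of 0.66 and an adjusted P of 0.0129 by edgeR. Since only the shARMC5 libraries reached 10 counts, the gene entered the test through the group in which it is high, and its call is no support for a difference. The transcript ENST00000419593, a target of nonsense-mediated decay whose junction is shown above, held 10, 36 and 10 of the reads in shARMC5 and 0 in every shNT library. Neither partner was called, with log2 fold changes of 0.13 for SYS1 (standard error 0.06, adjusted P = 0.282) and 0.02 for DBNDD2 (standard error 0.07, adjusted P = 0.922).

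ARMCX5-GPRASP2, here its protein-coding entry, lies on the X chromosome. It had 37, 50 and 48 reads in shARMC5 and 29, 12 and 11 reads in shNT cells, groups that did not overlap. The rise, 1.39 as a log2 fold change, had a standard error of 0.37 and an adjusted P of 0.0408. Its only transcript in the files, ENST00000652409, lies outside ARMCX5 and has none of its sequence. It starts within GPRASP2, the gene of a sorting protein for G protein-coupled receptors, and runs on through GPRASP3, downstream of both. Of its 5552 words of 31 bases, 262 occur in GPRASP2, 5109 in GPRASP3 and 184 in no other gene, and it carries the joined symbol without the joined sequence. It was the only member in the files with most of its words in other genes and in neither partner. ARMCX5 (log2 fold change -0.02, standard error 0.08), GPRASP2 (0.00, standard error 0.20) and GPRASP3 (-0.09, standard error 0.12, adjusted P = 0.758) were not called.

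ABHD14A-ACY1 on chromosome 3 ends in the gene of aminoacylase 1, which frees amino acids from their N-acetylated forms. It had 7, 12 and 12 reads in shARMC5 and 38, 21 and 23 reads in shNT cells, again without overlap. The fall, -1.40 as a log2 fold change, had a standard error of 0.41 and an adjusted P of 0.0624. Its reads were spread over several of 29 transcripts, and the transcript with the most reads differed between the shNT libraries. It was ENST00000637025 with 21 reads in replicate 1, ENST00000636826 with 17 in replicate 2 and ENST00000637730 with 12 in replicate 3. Only ENST00000636029 had reads in every shNT library, with 1, 2 and 2. ABHD14A (-0.12, standard error 0.15, adjusted P = 0.736) and ACY1 (-0.05, standard error 0.06, adjusted P = 0.713) were not called.

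All 3 calls rest on at most 50 reads in a library, and none held in every alternative. SYS1-DBNDD2 kept an adjusted P under 0.1 in 8 of 10 alternatives that gave one, ARMCX5-GPRASP2 in 8 of 13 and ABHD14A-ACY1 in 7 of 13. Without shARMC5 replicate 3, shNT replicate 2 or shNT replicate 3 the adjusted P of ARMCX5-GPRASP2 was 0.146, 0.115 and 0.136. That of ABHD14A-ACY1 was 0.168 and 0.184 without shARMC5 replicates 1 and 2, and 0.247 and 0.113 without shNT replicates 1 and 3. Over all fits without 1 library the log2 fold change was 1.16 to 1.92 for ARMCX5-GPRASP2 and -1.687 to -1.135 for ABHD14A-ACY1. Without any 1 of the shARMC5 libraries SYS1-DBNDD2 had too few reads for the test.

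TNFSF12-TNFSF13, whose partners encode the cytokines TWEAK and APRIL, had 0 reads in all 3 shARMC5 libraries and 12, 94 and 11 reads in shNT cells. Against a floor of 3 counts per library this was at least 12.4-fold lower, and shNT replicate 2 held most of the reads. Without shNT replicate 2 the bound was 3.88-fold. The gene passed the filter only through shNT cells, its adjusted P was 0.366 and it was not called, and 27 of its 31-base words are its own. TNFSF12 (0.04, standard error 0.09) and TNFSF13 (0.02, standard error 0.11) had log2 fold changes near 0. GET1-SH3BGR had 0, 16 and 0 reads in shARMC5 and 48, 12 and 9 reads in shNT cells (log2 fold change -2.18, standard error 1.31, adjusted P = 0.477). TSNAX-DISC1, which runs into a gene known from neurodevelopment, had 4, 20 and 12 reads in shARMC5 and 0, 11 and 0 reads in shNT cells (log2 fold change 1.65, standard error 1.10, adjusted P = 0.499). The groups of both overlapped.

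**Figure D2:**
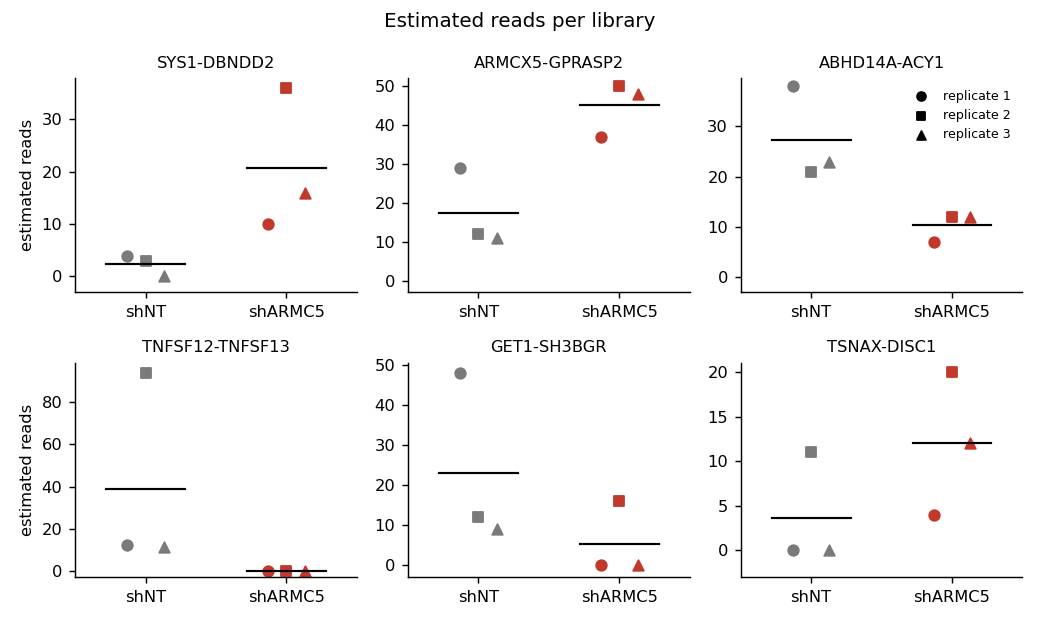
Estimated reads per library, not normalized for depth, of the 3 called readthrough genes (SYS1-DBNDD2, ARMCX5-GPRASP2 and ABHD14A-ACY1) and of the 3 others with the largest fold changes, with the mean of each group as a line. TNFSF12-TNFSF13 is at 0 in all shARMC5 libraries, and GET1-SH3BGR and TSNAX-DISC1 overlap between the groups.

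In these libraries the levels of readthrough genes varied more between replicates than those of other genes in the same range of mean reads. Depth was not matched within a range. Of 79 members with at least 10 reads in some library, 24 (30.4%) had 0 reads in 1 library and at least 10 in another library of the same group. Among all 14857 such genes it was 2.96%. Of genes with a mean of 10 to 100 reads, it was 13 of 34 members (38.2%), 4 of 22 partner genes (18.2%) and 153 of 2727 genes (5.61%). It was 4 of 15 members with at most 30 words of their own and 20 of 64 with more. COMMD3-BMI1 had 37 reads in shNT replicate 1 and 0 in the other 5 libraries. C1QTNF3-AMACR had 51, 31 and 0 reads in shARMC5 and 17, 21 and 0 reads in shNT cells, and PDCD6-AHRR had 0, 40 and 35 against 0, 4 and 0 reads.

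The standard error shows the same spread. Among tested genes with a mean of 100 to 1000 reads, the median standard error of the log2 fold change was 0.163 for 28 readthrough genes, 0.0934 for 88 partner genes and 0.0851 for all 4582 genes. The median absolute log2 fold change was 0.23 for readthrough genes and 0.08 for all genes, over median reads of 107 and 845 per library. A part of the division of shared reads, or of depth within the range of 100 to 1000 reads, in this spread was not tested.

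**Figure D3:**
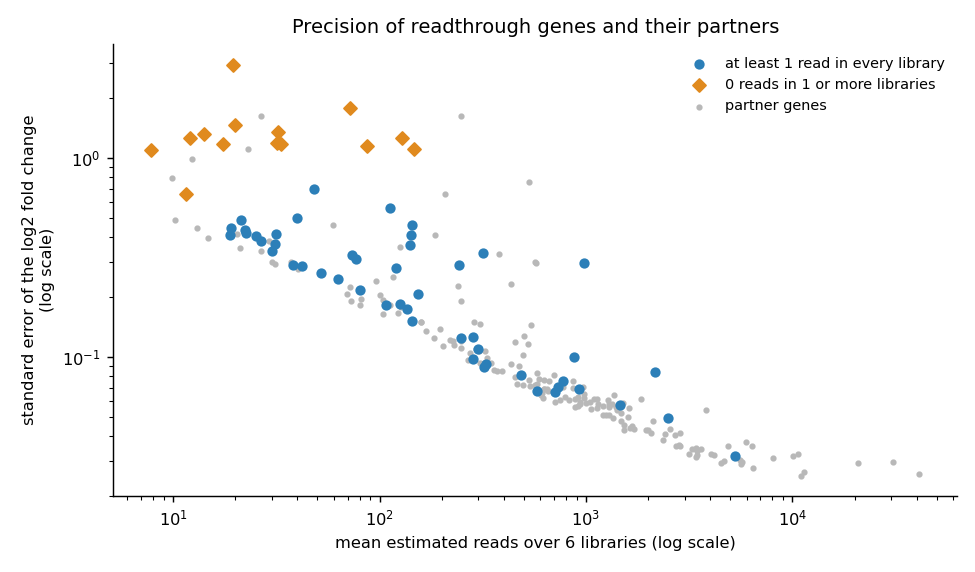
Standard error of the log2 fold change against mean estimated reads (both log axes) for the 63 tested readthrough genes, blue with reads in every library and orange with 0 reads in at least 1 library, and for their tested partner genes (grey). Every member with an error above 1 is orange.

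By transcript the reads were thinner still. Of the 342 readthrough transcripts 103 were tested, and edgeR called none, against 0.00803% of all 49809 transcripts tested. At an unadjusted P under 0.05 there were 7, and 2455 over all transcripts; no other tool was run on transcripts. ENST00000485419 of IQCJ-SCHIP1 had 0 reads in all shARMC5 libraries and 31, 101 and 99 in shNT cells. ENST00000607564 of RNASEK-C17orf49, a retained intron, had 27, 49 and 14 reads in shARMC5 and 0 in all shNT libraries. Another retained intron of that gene, ENST00000547863, went the other way, with 6, 0 and 0 reads in shARMC5 and 26, 75 and 32 in shNT cells. The adjusted P values of these transcripts by edgeR were, in that order, 0.306, 0.313 and 0.905. They were picked after their values were seen. Each passed the filter only through the group in which it is high, so none is support for a difference. The genes as a whole were not called. Their log2 fold changes were 0.12 for IQCJ-SCHIP1 (standard error 0.09, adjusted P = 0.513) and -0.36 for RNASEK-C17orf49 (standard error 0.25, adjusted P = 0.486).

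The share of the locus taken by A-B was next compared, since it sets the joined transcript against its own partners. Over all loci together it was 2.87%, 2.96% and 2.85% in shARMC5 and 2.98%, 2.83% and 2.95% in shNT libraries. The means were 2.89 ± 0.06% and 2.92 ± 0.08% (SD, n = 3, P = 0.8, exact two-sided permutation test). Over the 63 tested members the share was higher in shARMC5 cells in 28 and lower in 35, with a median difference of -0.06 percentage points. In 9 of them (14.3%) the groups did not overlap, which gives P = 0.1 in the exact permutation test, the smallest it can give, and no share could therefore pass a threshold of 0.05. Other genes have no such share, so the count of 9 stands without a background and is not read as a result.

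The largest of these 9 differences, in BORCS8-MEF2B and FAM47E-STBD1, were picked after their values were seen. BORCS8-MEF2B joins a subunit of a lysosome-positioning complex to a transcription factor of the MEF2 family, genes whose annotated spans overlap. It took 19.5%, 22.2% and 21.1% of its locus in shARMC5 and 33.4%, 30.99% and 33.5% in shNT cells, a difference of -11.7 percentage points. Its estimated reads gave a log2 fold change of -0.27 with a standard error of 0.15 (adjusted P = 0.377), while with an offset for transcript length the value was -0.70 and was called (adjusted P = 0.0823 by edgeR and 0.0213 by DESeq2). FAM47E-STBD1, which ends in the gene of a glycogen-binding protein, took 42.8%, 41.3% and 41.5% in shARMC5 and 38.1%, 31.3% and 36.7% in shNT cells, a difference of 6.51 points. STBD1 itself fell, with a log2 fold change of -0.26 with a standard error of 0.08 (adjusted P = 0.0602).

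**Figure D4:**
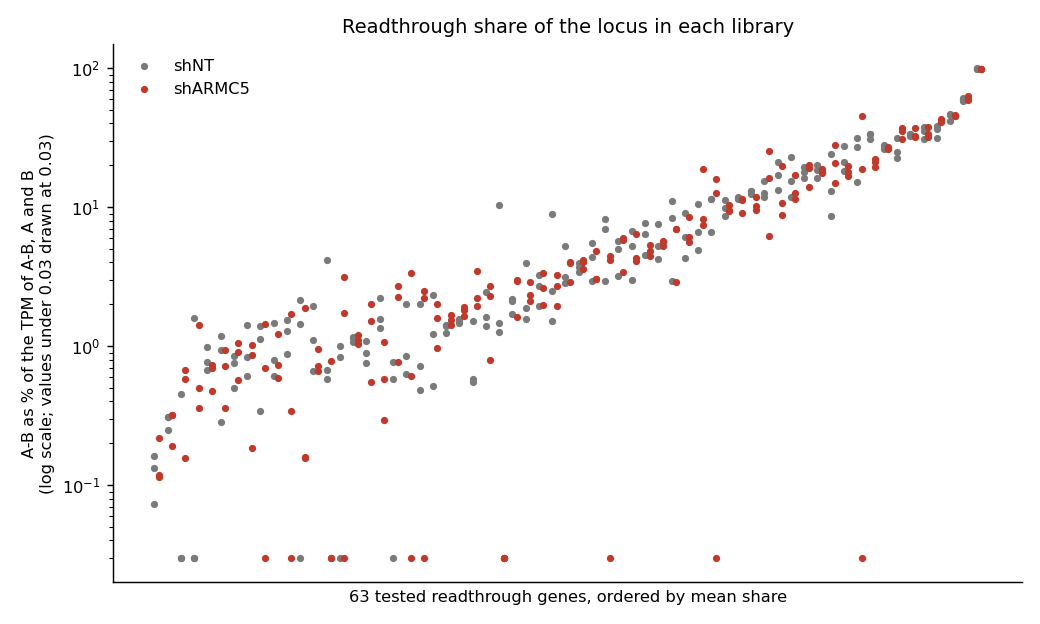
Share of A-B in the TPM of A-B, A and B (percent, log axis) in each shNT (grey) and shARMC5 (red) library for the 63 tested readthrough genes, ordered by their mean share. Grey and red points intermix over the whole range, from 0.136% to 98.7%, and points at the lower edge are libraries without reads or nearly so.

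Few of the partner genes were called. Of 181 tested, 10 were called (5.52%, against 7.75% of all genes, a difference not tested), 4 higher and 6 lower. Among 93 upstream genes none was higher and 3 were lower, with 11 (11.8%) at an unadjusted P under 0.05, and the median log2 fold change was -0.02. Among 90 downstream genes 4 were higher and 3 were lower (7.78%), with 16 (17.8%) at an unadjusted P under 0.05 and a median of 0.02. Over all genes that share was 18.1%. The difference between upstream and downstream genes was not tested.

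BMI1, a subunit of the polycomb repressive complex PRC1 and downstream of COMMD3, rose. It had 69.2, 74.4 and 72.3 CPM in shARMC5 and 58.3, 59.7 and 61.8 CPM in shNT cells, a log2 fold change of 0.27 with a standard error of 0.04 (adjusted P = 0.000985). COMMD3 was not called (0.11, standard error 0.08, adjusted P = 0.471). PLSCR3, a phospholipid scramblase downstream of TMEM256, rose from 39.3, 39.5 and 38.7 CPM in shNT to 43.5, 43.9 and 50.6 CPM in shARMC5 cells (log2 fold change 0.23, standard error 0.06, adjusted P = 0.0297). Without shARMC5 replicate 3 or shNT replicate 1 its adjusted P was 0.130 and 0.103. In both pairs all shARMC5 libraries of the called gene stood above all shNT libraries.

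AMACR, the peroxisomal racemase of branched-chain fatty acids downstream of C1QTNF3, fell. It had 26.3, 25.0 and 25.2 CPM in shARMC5 and 32.8, 32.6 and 34.6 CPM in shNT cells (log2 fold change -0.39, standard error 0.06, adjusted P = 0.000587). AHRR, the repressor of the aryl hydrocarbon receptor downstream of PDCD6, fell from 16.6, 16.8 and 16.6 CPM to 12.7, 11.1 and 13.1 CPM (log2 fold change -0.44, standard error 0.08, adjusted P = 0.00302). ANKHD1, an ankyrin repeat protein gene upstream of EIF4EBP3, fell from 88.5, 86.6 and 89.2 CPM to 80.3, 75.6 and 70.5 CPM (log2 fold change -0.22, standard error 0.04, adjusted P = 0.00582). With an offset for transcript length the fold change of ANKHD1 was -0.12 and was not called. The other called partners were TAX1BP3 (0.13) and UBE2V1 (0.09), which rose, and STBD1, RPL36A (-0.11) and TVP23C (-0.38), which fell.

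A sum over A-B, A and B does not depend on how shared reads were divided among them. Such sums formed 114 loci, since some members share a gene, and 101 were tested. Where no A-B gene of the locus had a level here, the sum was over A and B alone. By edgeR 9 were called (8.91%, against 8.12% of all features in that fit), 5 higher and 4 lower, and the median log2 fold change was 0.00. Among the loci that fell were those of C1QTNF3-AMACR (-0.36), ANKHD1-EIF4EBP3 (-0.16) and PDCD6-AHRR (-0.11). The loci of COMMD3-BMI1 (0.22), TMEM256-PLSCR3 (0.18), P2RX5-TAX1BP3 (0.13), PPAN-P2RY11 (0.12) and TGIF2-RAB5IF (0.11) rose. In 6 of these 9 loci a partner gene was called on its own, and in none was the readthrough gene called. The loci of SYS1-DBNDD2 (0.10, adjusted P = 0.275), ARMCX5-GPRASP2 (0.05, adjusted P = 0.749, without GPRASP3) and ABHD14A-ACY1 (-0.10, adjusted P = 0.406) were not called.

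**Figure D5:**
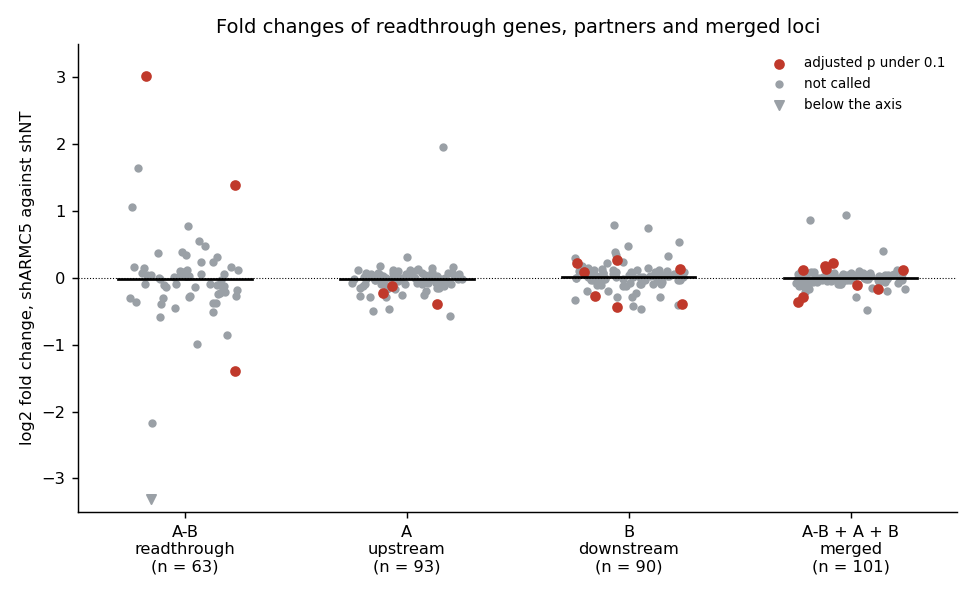
Log2 fold change of shARMC5 against shNT for the tested readthrough genes, upstream partners, downstream partners and merged loci, with calls at an adjusted P under 0.1 in red and medians as lines. All 4 medians lie at or next to 0, readthrough genes spread the most, and TNFSF12-TNFSF13, which has 0 reads in all shARMC5 libraries and no measured fold, lies below the axis.

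By the distance between the partners, tested members had a median log2 fold change of -0.15 where the annotated genes overlap (8 members), -0.10 at 0 to 10000 bases (37 members) and 0.06 at larger distances (18 members). The median share of the locus was 2.55%, 1.97% and 1.25% in 10, 51 and 28 members with a read. These are descriptions without a test.

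Genes of the machinery that ends transcription were looked at beside the readthrough genes. All 40 genes of a list of cleavage, polyadenylation and termination were tested, and 1 was called (2.5%, against 7.75% of all genes), with a median log2 fold change of 0.00. CLP1, the RNA kinase of cleavage factor II, had 19.7, 20.7 and 21.5 CPM in shARMC5 and 17.4, 18.8 and 17.4 CPM in shNT cells, and rose by 0.21 on the log2 scale (standard error 0.07, adjusted P = 0.0906). It was called without shNT replicate 2 and in no other fit that left out a library. PPP1R10, a subunit of a phosphatase complex of termination, had the lowest fold change, at -1.55 (standard error 1.16, adjusted P = 0.583). It had 0, 1556 and 303 reads in shARMC5 and 1507 to 1761 in shNT cells. Scaled to library size these were 0, 39.45 and 12.01 CPM against 47.99, 54.31 and 53.78 CPM, groups that did not overlap.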

How the data were processed

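The 6 polyA RNA-seq libraries were grouped into shARMC5 and shNT by their labels. The authors used cutadapt 4.2 for trimming and salmon 1.9.0, with its GC correction, for quantification, and the deposited files hold estimated counts, TPM and lengths (other values) per transcript. hg38 stands in the processing notes, and the transcript set is not given in the sources used here. The deposited TPM values were used as levels per length.

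Of 177456 transcripts, 165533 were matched to GENCODE 44 by identifier without version. The other 11923, with 2.96% to 3.04% of the reads, were left out. The library kit named in the labels does not mark strand, and reads of overlapping genes cannot be told apart. Sums of estimated counts over the transcripts of a gene were rounded, and those that reached 10 in 3 or more libraries entered the test of edgeR 4.0.16 (R 4.3.3), using its quasi-likelihood F test with robust fitting, TMM factors (0.992 to 1.02), condition as the only term and Benjamini-Hochberg adjustment at 0.1. Standard errors are the absolute log2 fold change divided by the square root of F. The biological coefficient of variation was 0.0643. Merged loci and transcripts were fitted likewise. Shares and sums of TPM were compared with exact two-sided permutation tests (scipy 1.17.1). Junctions and 31-base words came from the GENCODE 44 transcripts, with Python 3.11.15, pandas 2.3.3 and numpy 2.4.6.

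The depth of 26201112 to 40866478 reads per library leaves genes with few reads with a large counting error. On simulated counts for 13737 genes, 200 of them changed, edgeR recovered 92% of the changed genes, and 10.7% of its calls were false. Every gene was simulated with the same biological coefficient of variation, 0.0643, and without a division of shared reads. These rates therefore do not describe the readthrough genes, whose spread was larger. Counts of replicates differed by more than sampling noise (chi-square per degree of freedom 5.22 to 21.0).

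Named were ARMC5, called members, the 10 tested members with the highest mean TPM, the 5 with the largest absolute log2 fold change, the 5 with a partner of smallest adjusted P, their partners, and called genes of the cleavage and termination list. Other names were picked after their values were seen. The members, lists and tests were chosen with earlier results of these data known. Alternatives were DESeq2's size factors, no factors beyond library size, a transcript length offset, DESeq2 1.42.0 without and with that offset (the last is the study's design), at least 1 count, filterByExpr, a replicate block, transcripts with the same version only, a threshold of 0.05, and each library left out. A further called locus and a further junction sequence are not reported here.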

Additional observations from a re-analysis of the deposited data

How the results depend on the processing

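ARMC5 kept its direction and its call in all alternatives. The count of called readthrough genes, 3, was 1 with an offset for transcript length in edgeR, 0 by DESeq2 (41 with an adjusted P), 1 by DESeq2 with that offset (38 with an adjusted P) and 0 with transcripts of the same version only, and 1 to 3 without 1 library. The call with the length offset, in edgeR and in DESeq2, was BORCS8-MEF2B and none of the 3, and leaving out shARMC5 replicate 1 added ZFP91-CNTF, leaving out shARMC5 replicate 3 added CENPS-CORT and leaving out shNT replicate 2 added SYNJ2BP-COX16. Over all genes edgeR called 1064, and these settings called 235, 877, 568 and 339; the cause was not tested. DESeq2 gave no adjusted P for any of the 3 called members, which is no lost call. In the same order the 10 called partners were 2, 8, 6 and 3, the 9 merged loci 2, 10, 7 and 2, and the 1 cleavage and termination gene 0 in each. With at least 1 count there were 17 partners and 2 cleavage and termination genes, at a threshold of 0.05 there were 6 and 0, and with library size only 0 cleavage and termination genes. Without 1 library the counts were 6 to 12 partners, 4 to 9 loci and 0 to 2 cleavage and termination genes. Lowest were 1 readthrough gene without shARMC5 replicate 2 or shNT replicate 3, 6 partners without shARMC5 replicate 2 or 3 or shNT replicate 1, and 4 loci without shNT replicate 3.

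The deviations of same-numbered libraries had correlations of 0.00045, 0.0148 and 0.0316. Of the shARMC5 libraries, replicates 2 and 3, but not replicate 1, correlated best with their own number. With a replicate block 5 readthrough genes, 19 partners, 16 loci and 6 cleavage and termination genes were called. Over all genes 1766 were called with the block, against 1064 without it. A source shared by same-numbered libraries was not tested. TNFSF12-TNFSF13 was then called (adjusted P = 0.000116), which is no support since it passed the filter only through shNT cells, and ISY1-RAB43 too (-0.24). RPL17-C18orf32 was called with at least 1 count (adjusted P = 0.00932). No readthrough transcript was called in any alternative run.

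The readthrough share of locus TPM differed by -0.0691 to 0.00259 percentage points without 1 library, positive without shNT replicate 1. Of 909 alternative values of named genes, 18 reversed, all of them uncalled. Without shNT replicate 1 these were ANKHD1-EIF4EBP3 (0.0144), AP3S2 (-0.0668), RPL17 (-0.0287) and TMEM256 (-0.0301), and without shNT replicate 3 BSCL2 (0.134). At the other end of their range without 1 library they were, in that order, -0.151, 0.0637, 0.0209, 0.144 and -0.122. With the length offset in edgeR and in DESeq2 they were ABCF2 (-0.0514 and -0.0519), AP3S2 (-0.150 and -0.150), ARPIN (0.0211 and 0.0211), GPRASP2 (-0.306 and -0.306), TNFSF13 (-0.194 and -0.196) and TSNAX (0.0648 and 0.0647), and with the same version TNFSF13 (-0.244). A further 44 sign changes of uncalled genes stayed within 1 standard error. Of the readthrough genes with reads, 26 had too few for the test.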
